A study of Rattus norvegicus with 10 samples.

Results

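The spliceosome, SR protein and hnRNP genes described here are the rows of the gene count table whose symbols begin with Hnrnp, Snrp, Sf3a or Sf3b plus a digit, or Prpf plus a digit, or consist of Srsf and a number. This rule uses names only and found 58 of the 17168 genes: 16 Hnrnp, 12 Prpf, 11 Srsf, 11 Snrp and 8 Sf3 genes. All 58 passed the filter on low counts. The rarest, Srsf12, had at least 73 counts in every library. Genes spelled Snrnp are not part of the set. Some are named singly below, and none is counted in the lists of other splicing genes.

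The spliceosome removes introns from pre-mRNA. It is built from small nuclear ribonucleoproteins (snRNPs), whose U1 and U2 particles recognise the ends of the intron and whose U4, U5 and U6 particles join as a tri-snRNP before catalysis. SR proteins, named for a domain rich in serine and arginine, bind exons and mostly favour their inclusion, while heterogeneous nuclear ribonucleoproteins (hnRNPs) coat the nascent transcript and often act against inclusion. Many of these genes control their own mRNA through exons that send the transcript to decay, and neurons use their balance to produce brain-specific isoforms.

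RNA was sequenced from left hippocampi of 10 TgF344-AD males, a rat model of Alzheimer's disease with human APP and presenilin transgenes under the prion promoter, all anaesthetised and perfused at 11 months of age. The untreated group of 5 ate plain rodent chow; the RG2833 group of 5 ate chow with 750 mg per kg of RG2833, which blocks the class I deacetylases HDAC1 and HDAC3, from 5 months of age for 6 months. The start and length of treatment come from a sentence of the design text that names another drug, ibudilast, while the title and sample labels name RG2833. No wild-type rats are among these libraries, and the single comparison, RG2833 against untreated, asks how the drug changes expression in transgenic males. Each library pools the RNA of the cells of 1 left hippocampus from 1 rat, so a change in RNA per cell and a change in the mix of cells cannot be told apart.

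Total expected counts ran from 15118203 to 18533520 per library, and the ribosomal RNA rows took from 4.07% to 11.4%. This share was highest in untreated replicate 3 (11.4%) and RG2833 replicates 4 (9.37%) and 5 (8.92%), with RG2833 replicate 3 next at 8.71%. Some libraries stood apart before any comparison. Untreated replicate 3 had the lowest summed level of 8 neuron markers, 4652 CPM (counts scaled to a common library size) where the rest of its group had 5009 to 6205, and the lowest level of CA3 and dentate granule cell markers among all 10 libraries. It also had the highest summed level of 8 astrocyte markers among untreated rats (10529 against 6779 to 8300 CPM) and of 8 microglia markers among all 10 libraries (841 against 434 to 670 CPM). By the mean log2 CPM of the neuron markers, RG2833 replicates 5 and 4 came next lowest (by their sum, untreated replicate 2 and RG2833 replicate 1), and their astrocyte markers were the highest of all libraries, at 11538 and 11378 CPM. Untreated replicate 2 and RG2833 replicate 1 held choroid plexus RNA: 9 choroid plexus markers summed to 7913 and 9242 CPM there and to at most 279.2 CPM elsewhere. For named genes whose value moved strongly without 1 library, a value without it is given.

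Promoter sequence is printed first for 4 of the 6 genes with the smallest p-values, which are the genes given library by library below. Each line gives the 120 bases just before the gene's span in the RefSeq tables of the GRCr8 assembly, 5′ to 3′ on the gene's strand. Capitals mark matches on either strand to the 6 motifs searched: the TATA box TATAAA, the CCAAT box CCAAT, the GC box GGGCGG, the ETS motif CCGGAAG, the cAMP response element TGACGTCA and the core of the NRF1 motif, GCGCATGC.
Srsf2, chr10:102554201-102554320, minus strand: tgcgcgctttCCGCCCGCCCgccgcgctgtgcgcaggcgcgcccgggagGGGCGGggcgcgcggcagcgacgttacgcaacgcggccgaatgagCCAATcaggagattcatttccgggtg
Hnrnpdl, chr14:9861596-9861715, plus strand: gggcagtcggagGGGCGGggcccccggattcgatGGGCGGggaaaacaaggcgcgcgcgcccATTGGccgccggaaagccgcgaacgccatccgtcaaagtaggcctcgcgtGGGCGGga
Srsf11, chr2:249760297-249760416, minus strand: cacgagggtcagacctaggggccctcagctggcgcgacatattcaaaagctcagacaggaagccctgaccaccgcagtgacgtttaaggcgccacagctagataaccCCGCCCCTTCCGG
Sf3b1, chr9:64026724-64026843, minus strand: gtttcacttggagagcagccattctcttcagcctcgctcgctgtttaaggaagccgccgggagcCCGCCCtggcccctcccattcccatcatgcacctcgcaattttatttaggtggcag

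For Srsf5 and Prpf40b none is shown, since the start the promoter table lists lies 2758 and 47199 bases inside the span of the gene. The Srsf2 and Hnrnpdl stretches each hold a CCAAT box and GC boxes, that of Srsf11 a GC box and an ETS motif side by side, and that of Sf3b1 1 GC box. Motifs were also counted over the 250 bases before each listed start. For 17 of the 56 genes with a window and 2750 of 9094 tested genes this whole window lies inside the gene's span, so it is not always the promoter at the gene's end. A CCAAT box was found in 27 of these 56 (48.2%), against 34.9% of 9094 tested genes with a sequence. An ETS motif was found in 15 (26.8%), against 14.2%. A GC box was found in 29 (51.8%), against 58.4%, and a TATA box in 5 (8.93%), against 6.51%. The cAMP response element was found in 1 (1.79%), against 2.98%, and the NRF1 core in 3 (5.36%), against 4.45%. A match is a string of letters, not a shown binding site, and no binding or chromatin data were analysed here.

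No splicing gene of the set passed the test, and 42 of the 58 had a log2 fold change below 0. With edgeR's quasi-likelihood test, 0 of the 58 genes had an adjusted p under 0.05, as did 0% of the 12161 genes tested; the smallest adjusted p among the 58 was 0.841. DESeq2 and limma-voom also called 0 of the 58; over all genes limma-voom called 0 and DESeq2 7 (0.0578%). Without adjustment, 6 of the 58 genes (10.3%) reached p under 0.05, as did 5.66% of all tested genes. These were Srsf5, Srsf2, Srsf11, Hnrnpdl, Prpf40b and Sf3b1, and each was lower in RG2833; 2.71% of all tested genes were lower at that threshold and 2.94% were higher. DESeq2 gave 9 such genes, all lower, where 2.8% of all its genes were lower, and limma-voom gave 7, all lower, where 4.43% of all genes were. The groups did not overlap for 2 of the 58 genes, Srsf2 and Hnrnpdl, both lower (3.45%, where 0.584% of all tested genes were lower without overlap and 0.419% higher). The 42 genes below 0 are 72.4% of the 58, where 53.5% of all tested genes were below 0. The median log2 fold change was -0.05 over the 58 genes and -0.01 over all genes tested. These are counts over genes that share libraries, and no test was made of the set as a whole.

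**Figure D1:**
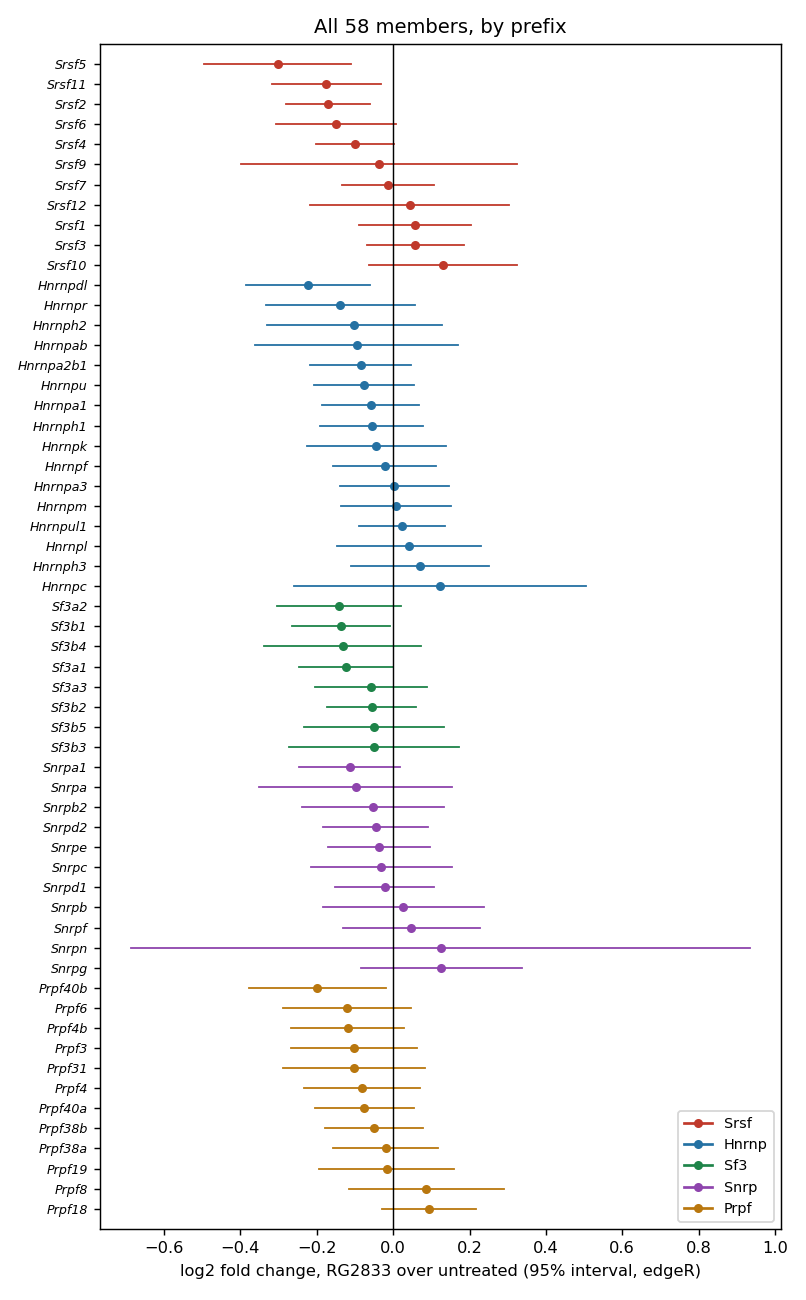
Log2 fold change of RG2833 over untreated for each of the 58 genes (horizontal axis), with the 95% interval of edgeR's quasi-likelihood fit as a line and colours for the 5 prefixes. All 8 Sf3 genes lie left of 0, the intervals of 6 genes end below 0, and the widest interval is that of Snrpn.

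All differences were small. The largest was a log2 fold change of -0.30, for Srsf5, and the median size over the 58 genes was 0.08. Between untreated rats these genes varied less than most: the median coefficient of variation was 6.92% over the 58 and 11.9% over the 9540 tested genes within the same range of mean CPM.

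Among SR proteins, Srsf5, Srsf2 and Srsf11 were the 3 with an unadjusted p under 0.05. Srsf5 encodes an SR protein that binds exonic enhancers. It was at 132.5, 139.1, 133.5, 119.8 and 119.2 CPM in untreated replicates 1 to 5 and at 113.3, 120.3, 104.3, 91.9 and 92.7 CPM in RG2833 replicates 1 to 5. Only RG2833 replicate 2 reached the untreated range, and RG2833 replicates 4 and 5 were lowest. The log2 fold change was -0.30 (SE 0.09; edgeR unadjusted p = 0.00552, adjusted p = 0.841). Without untreated replicate 3 and RG2833 replicates 4 and 5, the libraries lowest in neuron markers, it was -0.18 (unadjusted p = 0.0396).

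Srsf2, also called SC35, is an SR protein of nuclear speckles that acts in both constitutive and regulated splicing. Its untreated values were 116.6, 114.1, 123.1, 116.9 and 113.7 CPM and its RG2833 values 105.4, 104.5, 107.6, 105.2 and 96.6 CPM. Every RG2833 library lay below every untreated one. Srsf2 thus had a log2 fold change of -0.17 (SE 0.05; edgeR unadjusted p = 0.00577, adjusted p = 0.841), and without the 3 libraries lowest in neuron markers it was -0.13 (unadjusted p = 0.0311).

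Srsf11, a less typical SR protein known for its part in neuronal microexon splicing, was at 64.1, 62.2, 76.4, 67.5 and 67.9 CPM in untreated and at 60.7, 64.1, 57.9, 58.3 and 58.5 CPM in RG2833 rats. Untreated replicate 3 was the highest library, and RG2833 replicate 2 overlapped the untreated range. This gave a log2 fold change of -0.17 (SE 0.06; edgeR unadjusted p = 0.0211, adjusted p = 0.841). It was -0.13 (unadjusted p = 0.0486) without untreated replicate 3 and -0.11 (0.135) without the 3 libraries lowest in neuron markers.

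Srsf6 and Srsf4, long SR proteins related to Srsf5, had log2 fold changes of -0.15 (SE 0.07) and -0.10 (SE 0.05), with unadjusted p of 0.0597 and 0.0533. Srsf6 had 55.5 and 53.9 CPM in RG2833 replicates 4 and 5 and 60.2 to 69.8 CPM in every other library. Without those replicates and untreated replicate 3 its log2 fold change was -0.06. The classical SR proteins Srsf1 and Srsf3 had slightly higher means, from 138 ± 11.5 to 143 ± 6.17 CPM and from 106 ± 5.94 to 110.2 ± 5.06 CPM (mean ± SD, n = 5 each), with log2 fold changes of 0.06 (SE 0.07) and 0.06 (SE 0.06). These were 0.02 and 0.03 without untreated replicate 3, and reached 0.10 for Srsf1 without untreated replicate 4 and 0.09 for Srsf3 without RG2833 replicate 5. Srsf10, which acts as a repressor of splicing when dephosphorylated, had the largest positive value of the family, 0.13 (SE 0.09; edgeR unadjusted p = 0.164), and was at 0.08 without untreated replicate 3. Srsf7, close in sequence to Srsf3, was at 30.9 ± 0.792 and 30.6 ± 1.71 CPM. Srsf9 and Srsf12 had log2 fold changes of -0.04 (SE 0.16) and 0.04 (SE 0.12).

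**Figure D2:**
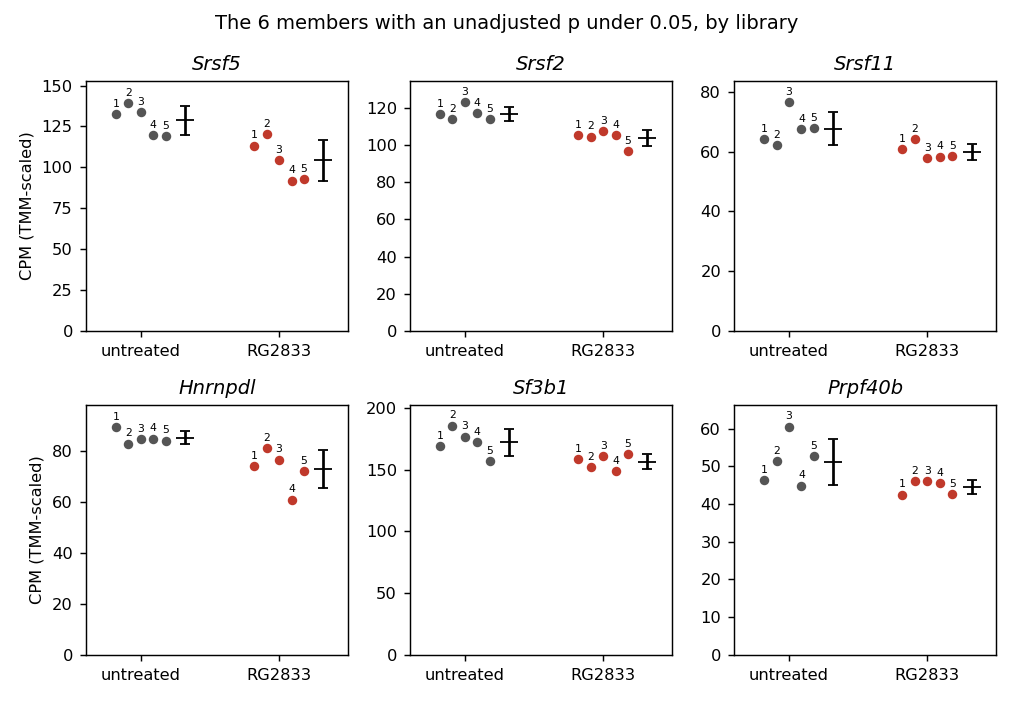
CPM on the TMM-scaled library size (vertical axes, from 0) in each of 5 untreated and 5 RG2833 libraries, numbered by replicate, with mean and SD as a bar beside the points. The groups do not overlap for Srsf2 and Hnrnpdl; for Srsf5, Srsf11, Sf3b1 and Prpf40b they do.

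Of the 16 hnRNP genes, 10 had a lower and 6 a higher mean log2 level in RG2833 rats, and only Hnrnpdl had an unadjusted p under 0.05. Hnrnpdl is a relative of the AU-rich element binding protein hnRNP D. Its level was 89.3, 82.7, 84.5, 84.7 and 83.9 CPM in untreated and 73.9, 81.0, 76.4, 60.8 and 71.9 CPM in RG2833 rats. All RG2833 libraries lay below all untreated ones, and RG2833 replicate 4 was the lowest. For Hnrnpdl the log2 fold change was -0.22 (SE 0.07; edgeR unadjusted p = 0.0116, adjusted p = 0.841). It was -0.15 (unadjusted p = 0.0402) without the 3 libraries lowest in neuron markers.

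The abundant nuclear hnRNPs differed by less. Hnrnpa2b1, which binds mRNAs carried into dendrites, went from 282 ± 17.8 to 266 ± 7.44 CPM (log2 difference -0.08, SE 0.06; 95% interval -0.22 to 0.05). Hnrnpu, a nuclear matrix protein also known as SAF-A, went from 416 ± 23.3 to 395 ± 9.33 CPM (-0.08, SE 0.06), and Hnrnpa1, a repressor of exon inclusion, from 225 ± 12.6 to 216 ± 8.17 CPM (-0.06, SE 0.06). Hnrnpa3, the hnRNP gene with the most counts, was at 459.9 ± 31.9 and 461 ± 11.5 CPM, with an interval of -0.14 to 0.14 on the log2 scale. Leaving out 1 library, Hnrnpu ran from -0.10 (without untreated replicate 3) to -0.05 (without untreated replicate 2) and Hnrnpa1 from -0.09 (without untreated replicate 3) to -0.04 (without RG2833 replicate 4). The Hnrnpa2b1 value became -0.12 (unadjusted p = 0.0382) without untreated replicate 3, where it had 252 CPM; the rest of its group had 279 to 295 CPM. The RefSeq table names 51 pseudogenes after Hnrnpa1 and none of them has a row in the count table, so how reads shared with such copies were counted is not known, and the level of Hnrnpa1 is uncertain. The same holds for 28 of the 58 genes, which have a pseudogene named after them in RefSeq, among them Srsf3 (10), Snrpg (8), Hnrnpk (7), Srsf7 (7) and Hnrnpc (6).

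Some hnRNP genes differed between libraries more than between groups. Hnrnpk, a poly(C)-binding protein, had 305 CPM in untreated replicate 3, below the 371 to 391.7 CPM of its group, and RG2833 replicates 4 and 5 were at 329 and 321 CPM against 367 to 376 CPM. Hnrnpab had 159 CPM in untreated replicate 3 and 166 CPM in both RG2833 replicates 4 and 5, with the other 7 libraries from 209 to 231.5 CPM. Hnrnph2 had 71.8 CPM in untreated replicate 3 and 81.2 and 79.9 CPM in RG2833 replicates 4 and 5, with the others from 87.4 to 104 CPM. The log2 fold change of Hnrnpk was -0.04 (SE 0.08), and ran from -0.10 without untreated replicate 3 to -0.01 without RG2833 replicate 5. These are the same 3 libraries that were lowest in neuron markers, and they also had the highest shares of ribosomal RNA. The part of cell composition or of library quality in these values was not tested.

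Hnrnpr, an RNA-binding protein of axons and nuclei, had the next smallest p among lower hnRNP genes (log2 difference -0.14, SE 0.09; edgeR unadjusted p = 0.146). Its lowest libraries were again RG2833 replicate 4, untreated replicate 3 and RG2833 replicate 5, at 67.4, 69.2 and 70.6 CPM. Without untreated replicate 3 its log2 fold change was -0.20 (unadjusted p = 0.0267). Hnrnpl, which binds CA repeats, was instead highest in these libraries: it had 336, 325 and 358 CPM in untreated replicate 3 and RG2833 replicates 4 and 5, and 275 to 301 CPM elsewhere. Hnrnph3 was highest in RG2833 replicates 5 and 4, at 48.3 and 47.1 CPM, and its log2 fold change of 0.07 (SE 0.08) became 0.02 without RG2833 replicate 5 and -0.03 without the 3 libraries.

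**Figure D3:**
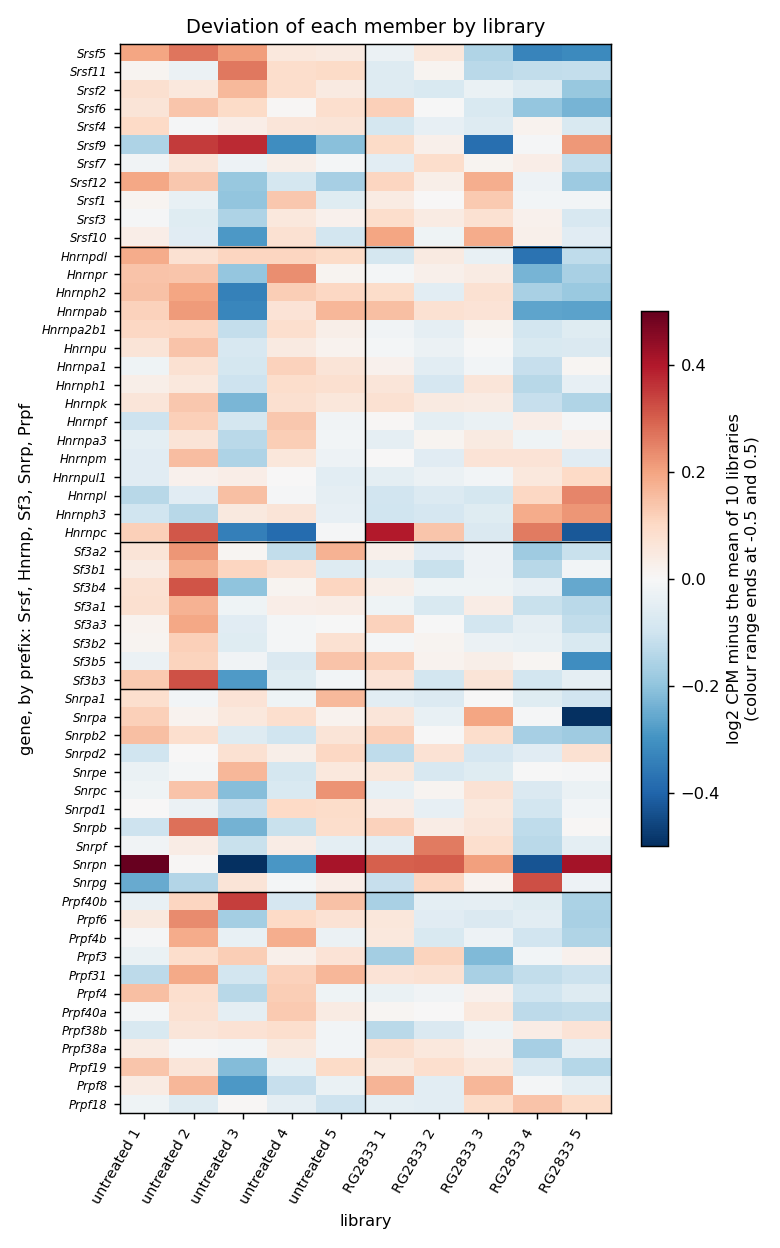
Log2 CPM of each of the 58 genes minus its mean over the 10 libraries (colour, ending at -0.5 and 0.5; red above, blue below), with genes grouped by prefix in rows and libraries in columns. Blue dominates the columns of RG2833 replicates 4 and 5, where 14 and 12 of the 58 genes lie above their mean; untreated replicate 3 is blue for many Hnrnp genes and red for Srsf11 and Srsf2.

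Hnrnpc, which forms the tetramer that measures out nascent RNA, was the most variable hnRNP gene, at 161, 184, 117, 114 and 148 CPM in untreated and 195, 163, 141, 178 and 110.5 CPM in RG2833 rats. Its high and low libraries did not follow the treatment: RG2833 replicates 1 and 5 were the highest and the lowest of all 10. The log2 fold change was 0.12 (SE 0.17), the largest positive value among hnRNP genes, and ran from 0.03 without RG2833 replicate 1 to 0.23 without RG2833 replicate 5.

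The Sf3a and Sf3b genes encode the protein subunits of the U2 snRNP that hold the branch point. All 8 had a lower mean in RG2833 rats, with log2 fold changes from -0.14 to -0.05 (7 of 8 in 4 of the 20 alternatives: Sf3b3 was at 0.03 without untreated replicate 2 and at 0.0024 without the choroid-rich libraries, and Sf3b5 at 0.02 without RG2833 replicate 5 and at 0.01 without the 3 libraries lowest in neuron markers), and 1 of 8 had an unadjusted p under 0.05. Sf3b1, the large scaffold that clamps the branch helix, was at 169, 186, 177, 173 and 157 CPM in untreated and at 158, 152, 161, 149 and 162.5 CPM in RG2833 rats. The groups overlapped through untreated replicate 5. For Sf3b1 the log2 fold change was -0.14 (SE 0.06; edgeR unadjusted p = 0.0394, adjusted p = 0.841). Without untreated replicate 3 it was -0.13 (unadjusted p = 0.0608), and without the libraries rich in choroid plexus RNA -0.12 (0.119).

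Sf3a1, the subunit that bridges to the U2 core, went from 96.6 ± 4.98 to 88.7 ± 4.31 CPM (log2 difference -0.12, SE 0.06; edgeR unadjusted p = 0.0514). Sf3a2 was at -0.14 (SE 0.07), with a wider spread between rats. Sf3b2, the gene of this group with the most counts, went from 217 ± 10.7 to 209 ± 4.89 CPM (-0.06, SE 0.05; -0.03 without untreated replicate 2). For all 8 genes the upper end of the interval was at most 0.17 on the log2 scale, that of Sf3b3. Untreated replicate 2, one of the libraries with choroid plexus RNA, had the highest value of all 10 libraries for Sf3b1, Sf3b2, Sf3b3, Sf3b4, Sf3a1, Sf3a2 and Sf3a3. Without it and RG2833 replicate 1, 38 of the 58 genes had a log2 fold change below 0, as did 54.6% of all tested genes. Of the 58, 5 had an unadjusted p under 0.05, all lower (2.3% of all tested genes were lower at that threshold).

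The Snrp genes encode the Sm proteins, which form the ring around spliceosomal RNAs, and proteins of the U1 and U2 particles. None of the 11 had an unadjusted p under 0.05: 7 had a lower and 4 a higher mean. Snrpa1, the U2 A′ protein, had the smallest p, going from 17.5 ± 0.926 to 16.2 ± 0.386 CPM (log2 difference -0.11, SE 0.06; edgeR unadjusted p = 0.0844). Snrpa, the U1 A protein, had 9.82 CPM in RG2833 replicate 5 and 13.6 to 16.1 CPM in the other 9 libraries (log2 difference -0.10, SE 0.11). It was 0.0009 without that library. Among the Sm genes, Snrpg was at 20.2 ± 1.84 and 22.1 ± 2.64 CPM (0.13, SE 0.10; 0.06 without RG2833 replicate 4), Snrpf at 18.5 ± 0.807 and 19.1 ± 2.13 CPM, and Snrpd2 at 48.1 ± 2.58 and 46.6 ± 3.04 CPM. The Snrpf estimate of 0.05 was -0.02 without RG2833 replicate 2 and 0.09 without RG2833 replicate 4. That of Snrpd2, -0.05, ran from -0.07 without untreated replicate 1 to -0.02 without RG2833 replicate 1.

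Snrpn encodes SmN, a form of SmB made mainly in neurons from an imprinted locus. It had the largest coefficient of variation of all 58 genes, 36.9% over the 10 libraries. It was at 40.3, 22.9, 6.75, 18.6 and 30.3 CPM in untreated and at 28.0, 28.1, 26.3, 16.8 and 30.4 CPM in RG2833 rats. Untreated replicate 3 was lowest and untreated replicate 1 highest, and the RG2833 values lay wholly within the untreated range. The log2 fold change was 0.12 (SE 0.37) and became -0.11 without untreated replicate 3 and 0.40 without untreated replicate 1. Untreated replicates 3 and 1 were also the lowest and the highest in neuron markers, by sum and by mean log2 CPM. RG2833 replicate 5 was second highest in Snrpn. In neuron markers it was second lowest by mean log2 CPM but not by sum (5393 CPM, above RG2833 replicates 1 and 4). The part of neuron content in the Snrpn values was not tested. Snrpb, which encodes SmB and its splice variant, was at 33.3 ± 4.80 and 34.0 ± 2.08 CPM (log2 difference 0.03, SE 0.10; -0.02 and 0.11 without untreated replicates 3 and 2). In untreated replicate 3 Snrpn was lower by a log2 difference of -1.98 from the mean of the other untreated rats, and Snrpb by -0.27. The RefSeq table names 4 pseudogenes after Snrpn and 2 after Snrpb.

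**Figure D4:**
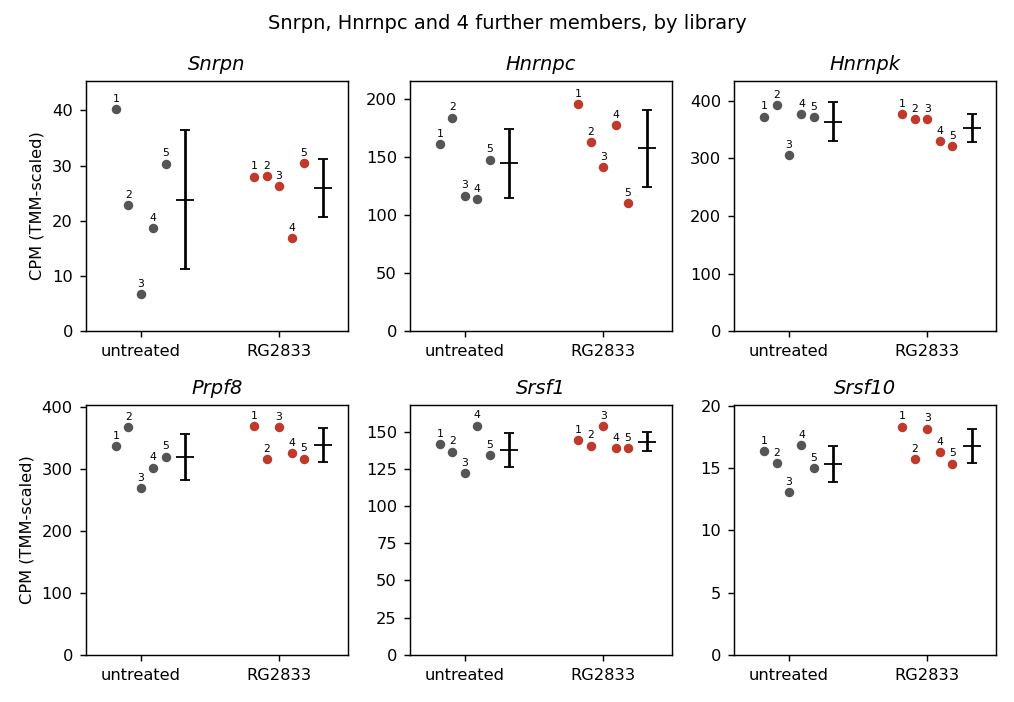
CPM (vertical axes, from 0) of Snrpn, Hnrnpc, Hnrnpk, Prpf8, Srsf1 and Srsf10 in 5 untreated and 5 RG2833 libraries, numbered by replicate, with mean and SD beside the points. Untreated replicate 3 is lowest of its group for Snrpn, Hnrnpk, Prpf8, Srsf1 and Srsf10, while the group means differ by less than the SD of the untreated group for all 6 genes.

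The Prpf genes were named after yeast pre-mRNA processing mutants and mostly encode tri-snRNP and catalytic-core proteins. Of 12, 10 had a lower mean in RG2833 rats and 1 had an unadjusted p under 0.05. Prpf40b, a U1-associated protein, was at 46.4, 51.3, 60.5, 44.9 and 52.7 CPM in untreated and at 42.5, 46.0, 46.1, 45.6 and 42.7 CPM in RG2833 rats. The RG2833 values were close together, and untreated replicates 1 and 4 were within or near them. For Prpf40b the log2 fold change was -0.20 (SE 0.08; edgeR unadjusted p = 0.0332, adjusted p = 0.841). Without untreated replicate 3, the highest library, it was -0.13 (unadjusted p = 0.0672), and without the 3 libraries lowest in neuron markers -0.12 (0.126).

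Prpf8, the large protein at the heart of the U5 snRNP, was at 319 ± 37.0 and 338 ± 27.0 CPM (log2 difference 0.09, SE 0.09). It was 0.03 without untreated replicate 3, where Prpf8 was lowest at 268 CPM, and 0.14 without untreated replicate 2. Prpf6, which bridges U5 and U4/U6, went from 71.9 ± 7.12 to 66.1 ± 3.57 CPM (-0.12, SE 0.08). It was -0.17 (edgeR unadjusted p = 0.0185) without untreated replicate 3 and -0.07 without untreated replicate 2. Prpf31, a U4/U6 protein known from inherited retinal degeneration, went from 29.4 ± 3.00 to 27.4 ± 2.16 CPM (-0.10, SE 0.08; -0.07 without untreated replicate 2). The splicing kinase Prpf4b was at -0.12 (SE 0.07) and the ubiquitin ligase Prpf19 at -0.02 (SE 0.08). Prpf18, a second-step factor, had the smallest p of all higher genes: it was at 84.2, 87.2 and 84.3 CPM in RG2833 replicates 3, 4 and 5 and at 76.2 and 76.1 CPM in replicates 1 and 2, against 73.5 to 79.2 CPM in untreated rats (0.09, SE 0.06; edgeR unadjusted p = 0.124). It was 0.05 without the 3 libraries lowest in neuron markers.

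Most splicing genes outside the set also had a lower mean. Of 155 entries in 7 lists of further splicing genes, 141 were tested: 105 had a lower and 36 a higher mean log2 level in RG2833 rats, with a median log2 fold change of -0.06. The 105 are 74.5%, where 53.5% of all tested genes were lower. None had an adjusted p under 0.05 with edgeR, and 13 (9.22%) had an unadjusted p under 0.05, all lower, where 2.71% of all tested genes were lower and 5.66% passed in either direction. The 13 include both genes of the list of cold-induced RNA-binding proteins. By list, the mean was lower for 23 of 26 SR kinases and SR-related proteins, 36 of 42 other core spliceosome genes and 21 of 34 tissue splicing regulators. It was lower for 5 of 7 minor spliceosome genes, 9 of 16 genes of snRNP assembly, 9 of 14 genes of the exon junction complex and its decay partners, and both cold-induced genes. The median log2 fold change was -0.10 for SR kinases and SR-related proteins, -0.06 for other core spliceosome genes and -0.11 for minor spliceosome genes. It was -0.04 for tissue splicing regulators and for the exon junction list, and -0.03 for snRNP assembly.

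**Figure D5:**
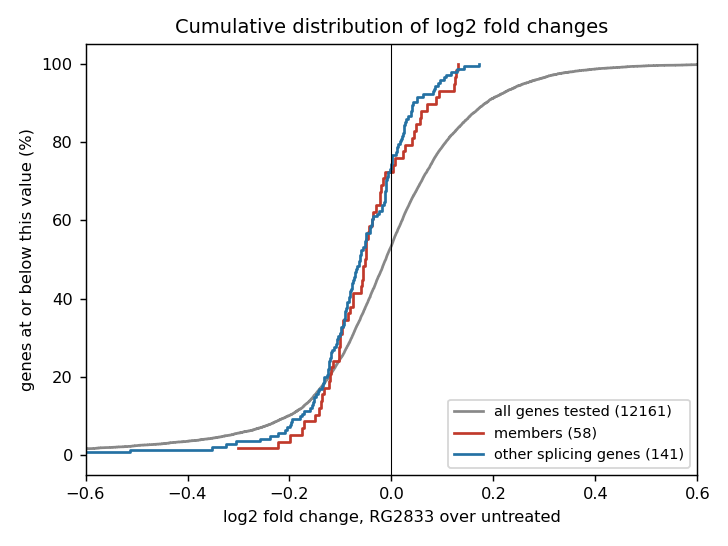
Share of genes (vertical axis, percent) at or below each log2 fold change of RG2833 over untreated (horizontal axis, shown from -0.6 to 0.6) for all 12161 tested genes, the 58 genes described and the 141 other splicing genes. At a log2 fold change of 0 the curves stand at 53.5% for all genes, 72.4% for the 58 and 74.5% for the other splicing genes.

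Snrnp70, the U1 70K protein, which is in none of these lists, was at 55.5, 63.3, 85.5, 55.1 and 55.4 CPM in untreated and at 46.9, 50.6, 52.5, 53.3 and 46.7 CPM in RG2833 rats. The groups did not overlap, and untreated replicate 3 stood far above the rest. Snrnp70 had a log2 fold change of -0.33 (SE 0.12; edgeR unadjusted p = 0.0200, adjusted p = 0.841) and -0.20 without untreated replicate 3. Pnisr, an SR-rich nuclear speckle protein, had the same form: 94.7 CPM in untreated replicate 3, 64.0 to 69.9 CPM in the rest of that group and 54.9 to 63.3 CPM under RG2833. Its log2 fold change was -0.32 (SE 0.11; edgeR unadjusted p = 0.0108) and -0.21 without that library. Clk1, a kinase that phosphorylates SR proteins, had 58.02 CPM in untreated replicate 3 and 26.7 to 37.3 CPM in the other 9 libraries; its log2 fold change of -0.30 (SE 0.17) became -0.11 without it.

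Ddx46, the helicase that remodels the U2 snRNP, had a lower mean that rested less on that library. It went from 75.7 ± 2.40 to 68.4 ± 1.60 CPM, and the groups did not overlap (log2 difference -0.15, SE 0.05; edgeR unadjusted p = 0.00877, adjusted p = 0.841). Without untreated replicate 3 the value was also -0.15. Tra2b, an SR-like activator, was at -0.12 (SE 0.07; -0.18 with an edgeR unadjusted p of 0.0122 without untreated replicate 3), Acin1 of the exon junction complex at -0.13 (SE 0.06) and Rnpc3 of the minor spliceosome at -0.22 (SE 0.11). Gemin8, of the SMN complex that loads Sm rings, was at 0.08 (SE 0.06). Without the 3 libraries lowest in neuron markers, Rnpc3 was at -0.12 and Gemin8 at 0.03. Snrnp200, the helicase that unwinds U4/U6, was at 0.04 (SE 0.06), and at 0.0075 and 0.07 without untreated replicates 3 and 2. Snrnp35 and Snrnp48 of the minor spliceosome were at -0.08 (SE 0.08) and -0.14 (SE 0.13), and at -0.03 and -0.0067 without untreated replicate 5. The neuronal regulators Ptbp2 and Rbfox3 were at -0.12 (SE 0.12) and -0.11 (SE 0.10). Leaving out 1 library, Ptbp2 ran from -0.20 (without untreated replicate 3) to -0.03 (without untreated replicate 1), and Rbfox3 from -0.18 (without untreated replicate 3) to -0.06 (without untreated replicate 2).

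The cold-induced RNA-binding proteins gave the largest differences in these lists among genes with an unadjusted p under 0.05. Rbm3 was at 38.7, 43.6, 40.4, 40.5 and 44.1 CPM in untreated and at 33.2, 37.6, 30.2, 21.0 and 23.4 CPM under RG2833 (log2 difference -0.51, SE 0.14; edgeR unadjusted p = 0.00462, adjusted p = 0.841). As for Srsf5 and Srsf6, RG2833 replicates 4 and 5 were lowest, and without them and untreated replicate 3 the log2 fold change was -0.31. Cirbp had a log2 fold change of -0.35 (SE 0.08) and of -0.23 without the same 3 libraries.

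Across libraries, the 58 genes did not vary evenly. Untreated replicate 2 had the highest value of the 10 libraries for 19 of them. Untreated replicate 3 had the lowest for 20, RG2833 replicate 5 for 13 and RG2833 replicate 4 for 10, while the other 7 libraries were lowest for 15 together. Within the untreated group, replicate 3 lay below all others for 32 of the 58 genes (55.2%, against 36.4% of all tested genes) and above all others for 10 (17.2%, against 32.1%). The genes above included Srsf11, Srsf2, Prpf40b and Hnrnpl. The genes below included Snrpn, Hnrnpk, Hnrnpab, Prpf8, Prpf6 and Srsf1.

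Without untreated replicate 3, 44 of the 58 genes had a log2 fold change below 0 and 10 had an unadjusted p under 0.05, all lower. In that fit 54.3% of all tested genes were below 0, 4.96% were lower at the threshold and 14.2% passed it in either direction. Of the 10, 4 were among the 6 named above, and Hnrnpa2b1, Hnrnph2, Hnrnpr, Prpf6, Sf3a1 and Sf3b4 were added. Without the 3 libraries lowest in neuron markers, 44 of 58 were below 0, as were 53.1% of all tested genes. Of the 58, 3 passed the unadjusted threshold, Srsf2, Srsf5 and Hnrnpdl, all lower (2.51% of all tested genes were lower at the threshold). Values of cell type markers stand beside these counts. All 8 astrocyte markers had a higher mean log2 level in RG2833 rats (median log2 fold change 0.32; 1 of 8 with an edgeR unadjusted p under 0.05), and their sums overlapped between the groups, at 6779 to 10529 CPM in untreated and 7826 to 11538 CPM in RG2833 rats. Of 8 neuron markers 7 had a lower mean (median -0.08), and they summed to 4652 to 6205 and 5286 to 5955 CPM. The mean was higher for 4 of 5 CA1 pyramidal cell markers (median 0.39; 1 of 5 with an unadjusted p under 0.05), 5 of 6 endothelial (0.21), 5 of 8 microglia (0.05) and 5 of 9 choroid plexus markers (0.14). It was lower for 3 of 3 CA3 (-0.11), 3 of 3 dentate granule cell (-0.04), 5 of 8 oligodendrocyte (-0.12) and 3 of 3 red blood cell markers (-0.49), and none of these lists other than CA1 had a marker with an unadjusted p under 0.05. Their part in the lower levels of splicing genes was not tested.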

How the data were processed

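The 10 libraries, 1 per rat, hold mRNA and keep its strand, per the labels' protocols. The deposited values are RSEM expected counts per gene, estimates that need not be whole (11.6% were not). The submitters' processing notes name bcl2fastq 2.17, Bowtie2 2.1.0, RSEM 1.2.15, edgeR and the build rn6; the annotation is not given in the sources used here. The authors' TMM-normalized table was not used.

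Expected counts were rounded and fitted over the whole table with edgeR 4.0.16 in R 4.3.3: filterByExpr (minimum count 10, minimum total count 15; 12161 of 17168 genes, 70.8%), TMM scaling, and the robust quasi-likelihood F test of RG2833 against untreated without covariates. The Benjamini-Hochberg adjustment covered the whole set of tested genes, and 0.05 was the threshold. Standard errors come from the F statistic, and intervals are at 95%. CPM is on the TMM-scaled library size and is not scaled by gene length, so levels were not compared between genes. Log2 CPM used a prior count of 2. Limma 3.58.1 (voom with sample weights) and DESeq2 1.42.0 were alternatives.

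The 58 genes and all lists were chosen with earlier results of these data known. Named genes were, in each prefix group, the 2 with the smallest p in each direction and the one with the most counts; the gene with the largest coefficient of variation; the smallest p in each list; and a fixed list. Further genes (Srsf4, Srsf9, Srsf12, Hnrnpab, Hnrnph2, Hnrnpl, Sf3a2, Sf3a3, Sf3b3, Sf3b4, Sf3b5) were named after their values were seen. Snrnp25, on the fixed list, was not analysed here, and 1 gene that the rule names is not reported here. Promoters and names come from RefSeq (GRCr8), where all 58 symbols matched. No pair of libraries agreed within sampling noise (chi-square per gene at least 7.2 over 45 pairs). Nothing says that the rats came from separate litters. Tested on simulated counts, with 200 of 12161 genes changed 2-fold, the fit recovered 80% with 13 other calls; the differences described here are far smaller than that.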

Additional observations from a re-analysis of the deposited data

Results flagged for a closer look

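For each named gene and group of 5 libraries, the distance from the highest or lowest library to its neighbour was divided by the range. It was over 0.71 in 6 of 100 such sets, where chance gives about 5. Untreated replicate 3 was the library in 4 of them. There Hnrnpk was at 304.9 CPM, with its group at 371.2 to 391.7 CPM, a gap of 0.763 of the range. Snrnp70 was at 85.48 CPM against 55.1 to 63.26, Pnisr at 94.74 CPM against 64 to 69.92, and Clk1 at 58.02 CPM against 30.29 to 37.29, with gaps of 0.732, 0.808 and 0.748. In untreated replicate 5, Snrnp48 was at 10.8 CPM, against 7.04 to 7.641 CPM in the rest of its group (0.84). In RG2833 replicate 5, Srsf2 was at 96.62 CPM, against 104.5 to 107.6 CPM (0.718).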

How the results depend on the processing

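Over 20 alternatives, of which 1 was chosen after seeing the data, 0 of the 58 genes and 0 of the other splicing genes had an adjusted p under 0.05. Srsf5, Srsf2 and Hnrnpdl had an unadjusted p under 0.05 in all 20. Leaving out 1 library at a time gave 5 to 10 of the 58 genes with an unadjusted p under 0.05, all lower. The count was 10 without untreated replicate 3. The share of all genes lower at that threshold ran from 1.72% to 4.96%, highest in the same fit. In these fits 37 to 44 of the 58 had a log2 fold change under 0, where 49.3% to 55.6% of all tested genes did. The median log2 fold change of the 58 ran from -0.08 to -0.04. Of the other splicing genes, 7 to 15 passed the unadjusted threshold (7 without RG2833 replicate 5). Leaving out the 3 libraries lowest in neuron markers, chosen after seeing the data, gave 3 of the 58 and 7 other splicing genes. In that fit 5.37% of all tested genes passed in either direction and 2.51% were lower. With the replicate number as a block, 4 of the 58 and 6 other splicing genes passed, against 6 and 13, and the share of all genes lower at that threshold was 1.37%, against 2.71%. The numbers do not pair the rats: same-numbered libraries had correlated deviations of -0.487 to -0.0339, and 0 of 5 untreated libraries correlated best with its own number. Signs held in all alternatives for 42 of 50 named genes. Leaving out 1 library, the log2 fold change ran from -0.029 to 0.035 for Hnrnpa3, -0.16 to 0.00087 for Snrpa, -0.017 to 0.089 for Snrpf, -0.11 to 0.40 for Snrpn, -0.038 to 0.016 for Srsf7, -0.025 to 0.11 for Snrpb and -0.069 to 0.019 for Prpf19. Hnrnpa3 was at -0.0029 with upper-quartile scaling, -0.00083 without ribosomal RNA and -0.0093 in limma-voom, where Snrpn was at -0.015 and Srsf7 at 0.010. Srsf7 was at 0.0047 without the choroid-rich libraries. Without the 3 libraries, Hnrnph3 was at -0.034, Hnrnpa3 at -0.031, Snrpa at 0.014 and Snrpn at -0.033. The cause of these changes was not tested. The median SE over the 58 genes was 0.07 on the log2 scale.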
